A study of Mus musculus with 6 samples.

Results

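The 33 genes described here encode the enzymes and carriers that take up glucose, break it down to pyruvate, exchange lactate with other cells and store glucose as glycogen. They were chosen by symbol, and each gene is represented by 1 array probe set, the brightest on average of those annotated with exactly 1 symbol. By that rule 30 of the 33 were measured, of 18193 genes in all. Gpi1, Gapdh and Eno1 had no such probe set outside the array's own controls and are not analysed as genes here.

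The samples were pools of green fluorescent cells sorted from grey matter of the mouse somatosensory cortex, each from about 15 FVB/N animals of 2 to 3 months whose sex was not determined. The 3 reactive samples came from TgN(hGFAP-EGFP) GFEA mice, in whose astrocytes the human GFAP promoter drives the reporter, 5 days after a stab wound in the right hemisphere, 1 to 1.2 mm long at a depth of 0.7 mm. Uninjured Tg(Aldh1l1-eGFP)OFC789Gsat mice, whose reporter is driven by Aldh1l1 sequences, gave the 3 non-reactive samples from the matching region. Injury and reporter line coincide, so their effects cannot be told apart. The protocol shared by all samples also describes labelling with BrdU, a thymidine analogue, and does not say whether the animals used for the arrays received it. The labels call the samples of a group biological replicates.

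Astrocytes are known for a high glycolytic rate and hold most of the glycogen of the brain. Glucose enters through the Slc2a carriers, is phosphorylated by hexokinase, committed by phosphofructokinase and split by aldolase, and the resulting pyruvate is either reduced to lactate or passed to mitochondria through pyruvate dehydrogenase. Many of these steps are run by isoforms that differ between cell types: the aldolase Aldoc and the lactate dehydrogenase subunit Ldhb, for instance, are separate genes from Aldoa and Ldha. The question put to the data here was which isoforms differed between the groups.

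The values are log2 expression values, on which a difference of 1 is a doubling. A gene was called when limma, a linear model with moderated variances, gave an adjusted p under 0.05 after Benjamini-Hochberg correction over all probe sets. By that rule 0.951% of all 18193 genes were called, of which 0.39% were higher and 0.561% lower in the reactive arrays. The reactive arrays correlated at 0.901 to 0.921 with each other and the non-reactive arrays at 0.95 to 0.963. Reactive replicate 3 stood apart from the other reactive arrays on the second principal component (-99.3 against 57.1 and 77.95). Astrocyte markers were present on all arrays, but 8 of 10 were lower in the reactive group without overlap, of which 3 were called lower, while Gfap was called higher. Their summed level was 14.49 to 14.63 on reactive and 15.29 to 15.59 on non-reactive arrays (log2 of the sum). Aldoc is itself on that list. Of 12 microglia and macrophage markers 4 were called higher and 0 lower (limma), with 8 at an unadjusted p under 0.05, and their summed level was 14.24 to 14.77 against 12.84 to 12.95. Of 8 measured blood leukocyte markers 3 were called higher, with summed levels of 11.34 to 12.39 against 8.03 to 8.69. The summed levels of the oligodendrocyte (14.52 to 14.60 against 14.31 to 14.63), neuronal (12.07 to 13.35 against 12.83 to 13.41) and endothelial and mural (8.78 to 10.99 against 9.38 to 10.23) lists overlapped, and 0 of their markers were called (limma), with 4 of 10, 1 of 11 and 2 of 12 at an unadjusted p under 0.05. In the oligodendrocyte list Mbp weighs most in the sum and was lower on all reactive arrays (-0.49), while the other 9 markers had differences above 0, such as Cnp (1.04) and Mog (1.79), and the median was 0.77. Outside the controls no value was below 1.885, so a summed level alone does not show that a cell type was present. The genes dim in both groups (under 4.74, the midpoint of the ranked probe set means) were 4 endothelial and mural, 1 microglial and 1 leukocyte marker. The part of these other cells in the results that follow was not tested.

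The lactate dehydrogenase subunit Ldhb was the 1 gene of the 30 that was called, and it was lower in the reactive arrays. The phosphorylase Pygb, the aldolase Aldoc and the synthase Gys1 were also lower there without overlap between the groups, and the regulator Pfkfb2, the aldolase Aldoa and the transporter Slc16a3 were higher without overlap, but none of these 6 was called. The called share of 1 in 30 stands beside 0.561% of all genes called lower. Groups without overlap were seen for 7 of 30 members, 3 higher and 4 lower, beside 21.7% of all genes, 13.5% higher and 8.2% lower. Log2 differences of at least 1 in size were seen for 6 of 30 members, beside 12.3% of all genes. The share of members without overlap lies near that of all genes, and the called share rests on a single gene. The median log2 difference was -0.07 over the 30 members and 0.12 over all genes, and 16 of 30 members lay below 0, beside 7156 of 18193 genes. At an unadjusted p under 0.05 were 6 of 30 members, beside 2730 of 18193 genes. In pooled cells a lower share of a cell type and less of a transcript per cell cannot be told apart.

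**Figure D1:**
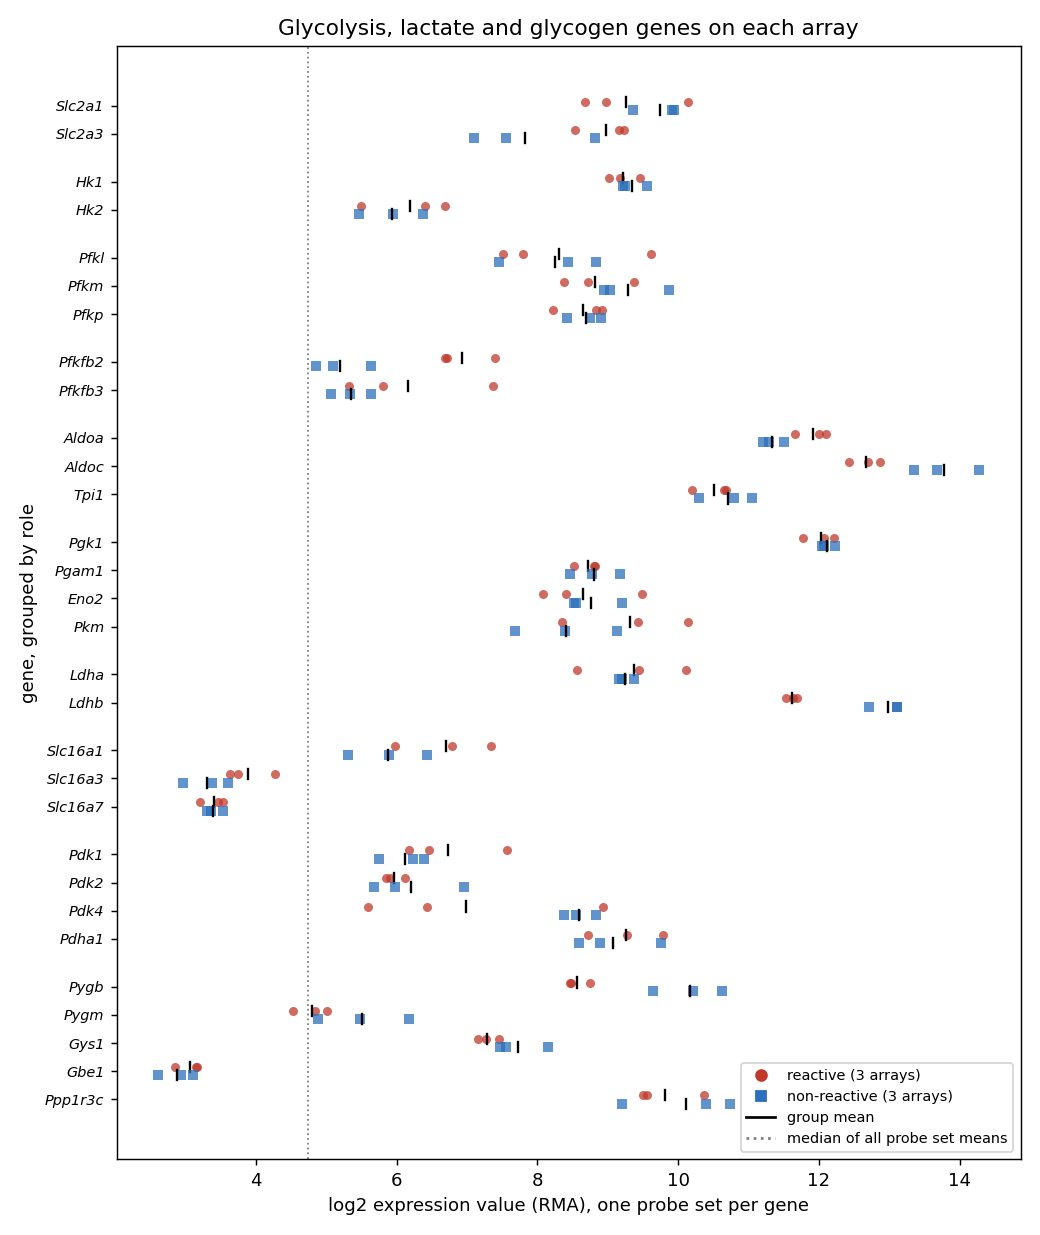
Log2 expression of the 30 measured genes on each of the 6 arrays, with reactive arrays as circles, non-reactive arrays as squares and group means as black ticks. The reactive values of Ldhb (11.53 to 11.69) and Pygb (8.46 to 8.75) lie below all non-reactive ones, while most other genes overlap; levels of different genes cannot be compared, because probe sets differ in sensitivity.

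Lactate dehydrogenase interconverts pyruvate and lactate, and its tetramer is built from the subunits encoded by Ldha and Ldhb. Ldhb measured 11.69, 11.63 and 11.53 on reactive replicates 1 to 3 and 12.71, 13.12 and 13.11 on non-reactive replicates 1 to 3. All 3 reactive values lay below all non-reactive ones, by a gap of 1.01. The reactive mean of Ldhb was 2.57-fold lower, at 11.62 ± 0.08 against 12.98 ± 0.23 (log2, SD, n = 3). The log2 difference was -1.36 with a standard error of 0.21 and a 95% interval of -1.85 to -0.87 (limma adjusted p = 0.0488). The other Ldhb probe sets differed by -1.15, -0.92 and -0.74, and all 4 separated the groups, though 1 of the 4 was called. The call sat close to the threshold: it was lost without any 1 of the 6 arrays (limma adjusted p of 0.0929 to 0.183) and was made in 4 of 15 alternatives, over which the adjusted p ranged from 0.0235 to 0.183.

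Ldha showed no such difference. It measured 8.56, 9.44 and 10.11 on the reactive arrays and 9.21, 9.38 and 9.16 on the non-reactive ones, so the reactive values spread to both sides. The log2 difference was 0.12 (SE 0.39, 95% interval -0.81 to 1.05, limma adjusted p = 0.911), an interval that leaves room for about a doubling.

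The regions before the start sites of both subunit genes are shown because Ldha is a textbook target of the hypoxia-inducible factors, which bind the core motif ACGTG or GCGTG. Each line gives the 250 bases before a RefSeq start site (GRCm38.p6), 5′ to 3′ on the gene's strand, with capitals where ACGTG or GCGTG occurs on either strand, so that CACGT and CACGC are the reverse-strand forms. Ldhb has 1 window in the table, chr6:142507958-142508207 on the minus strand. Of the 2 windows of Ldha the one further upstream is shown, chr7:46845554-46845803 on the plus strand.
Ldhb: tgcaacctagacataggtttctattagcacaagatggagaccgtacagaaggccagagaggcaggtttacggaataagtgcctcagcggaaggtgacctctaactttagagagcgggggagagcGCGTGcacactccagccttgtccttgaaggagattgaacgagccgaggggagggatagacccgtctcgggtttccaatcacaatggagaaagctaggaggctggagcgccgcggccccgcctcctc
Ldha: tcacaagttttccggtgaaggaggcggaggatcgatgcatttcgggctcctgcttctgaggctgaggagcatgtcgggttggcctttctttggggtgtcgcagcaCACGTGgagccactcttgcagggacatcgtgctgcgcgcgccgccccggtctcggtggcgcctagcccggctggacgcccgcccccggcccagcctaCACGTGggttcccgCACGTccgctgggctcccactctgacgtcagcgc
The Ldha window held ACGTG at 5 places, because each of its 2 CACGTG motifs counts once per strand, and the Ldhb window held GCGTG once, starting 126 bases before the start site. The Ldha window not shown held GCGTG once, starting 59 bases before its own start site. Windows were found for 28 of the 30 measured genes, 42 in all. Of these, 47.6% held ACGTG, 50% GCGTG and 16.7% CACGTG, against 16.6%, 28.2% and 6.02% of all 32851 windows. Either core motif was present in 76.2% of the members' windows, against 38.6% of all windows. By gene it was present in 24 of the 28, some of which have several windows. The share by gene was not computed over all genes, so this count has no matching background. The members' windows were richer in G and C (median 60.2% against 52.4%), and these motifs hold C and G together. A match is a string of letters and does not show that a factor binds there.

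Aldolase splits fructose bisphosphate, and its 2 genes differed in opposite directions. Aldoc, the form typical of astrocytes, measured 12.86, 12.70 and 12.43 on the reactive and 14.28, 13.35 and 13.68 on the non-reactive arrays. The groups did not overlap, and the log2 difference was -1.11 (SE 0.29, 95% interval -1.80 to -0.42, limma adjusted p = 0.175). Its other probe set differed by -0.90 and did not overlap either. Aldoa, the form of muscle and of most cells, measured 11.66, 12.10 and 12.003 against 11.51, 11.29 and 11.20. It was higher on all reactive arrays, by 0.59 (SE 0.21, interval 0.07 to 1.10, limma adjusted p = 0.321). All 5 Aldoa probe sets lay above 0, from 0.16 to 0.61, and 2 of them separated the groups. All 5 have names ending in _x_at, so Aldoa had no value when probe sets were removed by suffix. Neither gene was called.

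Aldoc and Aldoa are shown by the window furthest upstream, chr11:78322823-78323072 on the plus strand and chr7:126800448-126800697 on the minus strand, drawn as before, because this pair gave the largest change of the 12 isoform pairs.
Aldoc: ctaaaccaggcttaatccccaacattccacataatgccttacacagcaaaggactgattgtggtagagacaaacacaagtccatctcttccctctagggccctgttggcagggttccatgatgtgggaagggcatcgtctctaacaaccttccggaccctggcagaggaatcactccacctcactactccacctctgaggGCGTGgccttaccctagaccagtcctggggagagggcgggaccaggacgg
Aldoa: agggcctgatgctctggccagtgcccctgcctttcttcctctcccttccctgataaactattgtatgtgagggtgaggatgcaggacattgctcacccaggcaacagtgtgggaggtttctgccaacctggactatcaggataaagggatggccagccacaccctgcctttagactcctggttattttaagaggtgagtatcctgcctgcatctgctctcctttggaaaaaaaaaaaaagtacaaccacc
The Aldoc window held GCGTG once, starting 50 bases before the start site, and the Aldoa window held neither motif. The Aldoc window not shown also held GCGTG once, starting 39 bases before its own start site. The other 2 Aldoa windows, which overlap each other, share 1 ACGTG.

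Isoforms of the same step were compared within each array, as the log2 value of one gene minus that of the other, which shows whether the pair changed unequally. Of the 12 pairs, 2 had groups that did not overlap, Aldoa minus Aldoc and Ldha minus Ldhb. Aldoa minus Aldoc was -1.20, -0.61 and -0.43 on the reactive arrays and -2.77, -2.06 and -2.48 on the non-reactive ones, a change of 1.69. Ldha minus Ldhb was -3.13, -2.19 and -1.42 against -3.50, -3.74 and -3.94, a change of 1.48. In both pairs the difference was higher on every reactive than on any non-reactive array. Without 1 array the first change ranged from 1.53 to 1.92 and the second from 1.07 to 1.92. With probe sets removed by suffix neither pair had a value. The exact two-sided permutation test gave p = 0.1 for each, the smallest that 3 against 3 arrays allow, and 0.48 after Benjamini-Hochberg adjustment over the 12 pairs.

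Among the other 10 pairs the groups overlapped. The glucose transporter pair Slc2a3 minus Slc2a1 changed by 1.63 and the pyruvate dehydrogenase kinase pair Pdk4 minus Pdk2 by -1.35 (exact permutation p = 0.2 and 0.3). Neither size was stable: without 1 array the first ranged from 1.16 to 2.32 and the second from -2.24 to -0.68, and with probe sets removed by suffix the first was 0.50. Pygm minus Pygb changed by 0.88, Pdk1 minus Pdk2 by 0.86, Pfkfb3 minus Pfkfb2 by -0.92 and Slc16a7 minus Slc16a1 by -0.82. The pairs of hexokinases and phosphofructokinases changed by 0.38 to 0.52. These pairs rest on the same values as the single genes and are no separate evidence.

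**Figure D2:**
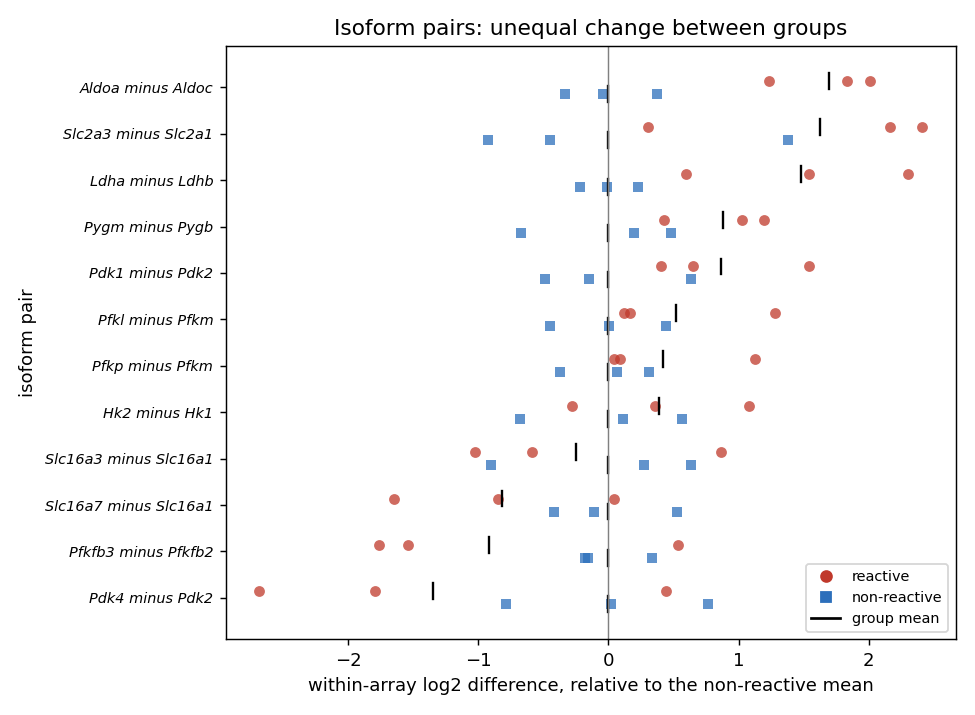
Within-array log2 differences of the 12 isoform pairs, each drawn relative to its non-reactive mean, with reactive arrays as circles, non-reactive arrays as squares and group means as ticks. The groups are apart for Aldoa minus Aldoc (mean change 1.69) and Ldha minus Ldhb (1.48) and overlap for the other pairs.

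Of the 5 glycogen members 4 had differences below 0, beside 7156 of 18193 genes. Of the same 5, 0 were called (limma), beside 0.951% of all genes, and 1 had an unadjusted p under 0.05, beside 2730 of 18193. Pygb, the brain form of glycogen phosphorylase, which releases glucose phosphate from glycogen, measured 8.46, 8.75 and 8.47 on the reactive and 10.63, 9.65 and 10.21 on the non-reactive arrays. All reactive values lay below all non-reactive ones, by a gap of 0.89. The log2 difference was -1.60 (SE 0.29, 95% interval -2.29 to -0.91), a 3.03-fold lower mean, with a limma adjusted p of 0.074. It passed in 1 of 16 alternatives, cyclic loess scaling (adjusted p = 0.0478). Pygm, the muscle form, which astrocytes also express, measured 5.01, 4.53 and 4.85 against 6.17, 5.47 and 4.88, so the lowest non-reactive array lay within the reactive range. Its log2 difference was -0.71 (SE 0.35, limma adjusted p = 0.445).

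The window before the single Pygb start site is shown because this gene had the largest difference of the glycogen members: chr2:150786546-150786795 on the plus strand, drawn as before.
Pygb: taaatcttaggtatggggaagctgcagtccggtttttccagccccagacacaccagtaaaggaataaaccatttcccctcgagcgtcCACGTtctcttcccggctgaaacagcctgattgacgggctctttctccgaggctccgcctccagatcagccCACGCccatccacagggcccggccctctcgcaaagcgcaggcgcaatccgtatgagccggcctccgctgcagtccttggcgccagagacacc
It held ACGTG once and GCGTG once, starting 163 and 92 bases before the start site.

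Gys1, the glycogen synthase outside liver, measured 7.27, 7.45 and 7.15 against 7.55, 7.46 and 8.14, groups that were apart by 0.016 only. Its log2 difference was -0.43 (SE 0.25, limma adjusted p = 0.508). Ppp1r3c, a subunit that targets protein phosphatase 1 to glycogen and so favours synthesis, overlapped, at 9.51 to 10.37 on reactive and 9.20 to 10.74 on non-reactive arrays (difference -0.30, SE 0.45). Gbe1, the branching enzyme, measured 3.06 and 2.89 on average, in the dim range under 4.74.

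The list of other glycogen genes was chosen with earlier results of these data known. It held 24 measured genes, of which 0 were called higher and 1 lower (limma). Of the 24, 5 had an unadjusted p under 0.05 and 19 had differences below 0, beside 2730 and 7156 of 18193 genes. The gene called lower was Phka1, a regulatory subunit of phosphorylase kinase, which switches glycogen phosphorylase on. Phka1 measured 7.09, 7.11 and 7.18 on the reactive arrays and 8.28, 8.35 and 8.54 on the non-reactive ones, with a tight spread in both groups. Its reactive mean was 2.39-fold lower, a log2 difference of -1.26 (SE 0.19, limma adjusted p = 0.0462). The call was lost without any 1 array (adjusted p of 0.0843 to 0.173) and held in 2 of 16 alternatives.

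The other subunits of the same kinase were also lower on average. Phkb measured 3.97, 6.03 and 5.45 against 7.03, 7.21 and 7.10, a difference of -1.97 (SE 0.51). Phkg1, a catalytic subunit, measured 3.03, 3.29 and 4.32 against 5.75, 4.63 and 5.28, a difference of -1.67 (SE 0.43), with a reactive mean below 4.74. Phkg2 differed by -0.71 (SE 0.22) and Phka2 by -0.53 (SE 0.45). Phkb, Phkg1 and Phkg2 did not overlap between the groups, Phka2 did, and none of these 4 was called (limma adjusted p of 0.168, 0.17, 0.247 and 0.642). All 5 subunits stayed below 0 under the 3 other scalings of the arrays. Ppp1r3d, another phosphatase targeting subunit, differed by -1.35 (SE 0.35), and Ugp2, which makes the glucose donor for glycogen, by -1.46 (SE 0.68), both without overlap and without a call. Without overlap lower were 7 of the 24, beside 8.2% of all genes.

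Glucose uptake showed no call. Slc2a3, a carrier of high affinity typical of neurons and also found in microglia, measured 9.22, 9.17 and 8.53 on the reactive and 8.82, 7.55 and 7.10 on the non-reactive arrays. Non-reactive replicate 1 lay among the reactive values, and the log2 difference was 1.15 (SE 0.47, interval 0.03 to 2.27, limma adjusted p = 0.366). Without 1 array it ranged from 0.79 (without non-reactive replicate 3) to 1.65 (without non-reactive replicate 1), and with probe sets removed by suffix it was 0.40. Slc2a1, the carrier of astrocytes and of the endothelium of brain vessels, measured 8.98, 8.67 and 10.14 against 9.36, 9.92 and 9.94, a difference of -0.48 (SE 0.42, limma adjusted p = 0.647). The reactive array with the highest Slc2a1, replicate 3, also had the highest summed level of the endothelial and mural list, 10.99 against 8.78 to 10.23 on the other 5 arrays, and 7 of the 12 markers peaked there. Among these the tight junction gene Cldn5 was at 9.36 against 4.51 to 5.61, while Slco1a4, Flt1, Pdgfrb, Rgs5 and Cspg4 peaked on other arrays. Slc2a1 differed by -0.92 without that array, by -0.18 without reactive replicate 2 and by -0.11 with probe sets removed by suffix. Reactive replicate 3 also held the peaks of 9 of 12 microglia and macrophage, 6 of 10 oligodendrocyte and 5 of 8 blood leukocyte markers. Of the astrocyte and neuronal markers, 1 of 10 and 0 of 11 peaked there. The part of RNA from endothelial or other cells in the Slc2a1 values was not tested.

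The hexokinases, which trap glucose in the cell, overlapped. Hk1 measured 9.01 to 9.46 on reactive and 9.22 to 9.56 on non-reactive arrays (difference -0.13, SE 0.22), and Hk2 5.49 to 6.68 and 5.47 to 6.38 (0.26, SE 0.39). The phosphofructokinases, which commit glucose to glycolysis, overlapped as well, with differences of 0.06 for Pfkl (SE 0.63), -0.46 for Pfkm (SE 0.37) and -0.04 for Pfkp (SE 0.27). Pfkl was the least precise of these, since reactive replicate 2 measured 9.62 and the other reactive arrays 7.80 and 7.51.

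The bifunctional enzymes Pfkfb2 and Pfkfb3 make and remove fructose 2,6-bisphosphate, the strongest activator of phosphofructokinase. Pfkfb2 measured 7.40, 6.71 and 6.68 on the reactive and 5.64, 4.86 and 5.09 on the non-reactive arrays, the largest gap between groups of all members (1.04). The log2 difference was 1.74 (SE 0.31, 95% interval 1.00 to 2.48, a 3.33-fold higher mean), with a limma adjusted p of 0.0707, and it was not called in any of 16 alternatives. Its 3 other probe sets differed by 0.44 (without overlap), 0.07 and -0.003, the last 2 dim in both groups, and the mean of all 4 by 0.56. The size of this difference therefore depended on the probe set. Pfkfb3, the form induced by hypoxia and inflammation, measured 5.80, 5.33 and 7.38 against 5.64, 5.34 and 5.08. Only reactive replicate 3 was clearly higher, and the difference of 0.82 (SE 0.52) was 0.21 without that array and up to 1.23 without another.

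Of the lower steps of glycolysis 0 genes were called (limma), with 0 at an unadjusted p under 0.05, and their intervals were of unequal width. Pgk1, phosphoglycerate kinase, measured 12.22, 11.77 and 12.07 against 12.23, 12.07 and 12.04, a difference of -0.09 with a 95% interval of -0.59 to 0.40. Pgam1, the mutase of the next step, differed by -0.09 (interval -0.68 to 0.50), Tpi1, triose phosphate isomerase, by -0.20 (-0.85 to 0.44) and the neuronal enolase Eno2 by -0.10 (-1.09 to 0.88). Of these 4 intervals that of Pgk1 was the narrowest and that of Eno2 the widest. Of the 3 Tpi1 probe sets 1 separated the groups, at -0.67, while the others differed by -0.20 and 0.02. Pkm, pyruvate kinase, measured 8.35, 10.14 and 9.43 against 9.14, 7.68 and 8.40, a difference of 0.90 (SE 0.55, interval -0.40 to 2.21, limma adjusted p = 0.523) with overlap, and without 1 array it ranged from 0.49 to 1.38.

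Gapdh, which follows Tpi1 in the pathway, was read only by the array's control probe sets along the transcript and by 3 probe sets annotated with several symbols. The control at the 3′ end measured 12.08, 12.71 and 12.64 on the reactive and 12.67, 11.65 and 11.98 on the non-reactive arrays, which overlapped (mean difference 0.38). The control at the 5′ end measured 8.23, 8.70 and 8.01 against 7.90, 5.90 and 6.92, higher on all reactive arrays (mean difference 1.40). The 3′ minus 5′ difference, a measure of how far the labelled RNA reaches along a transcript, was thus 4.17 on reactive and 5.19 on non-reactive arrays. It was 3.38 against 5.05 for Actb and 1.44 against 3.46 for the pyruvate carboxylase gene Pcx. For each of these transcripts it was lower on every reactive than on any non-reactive array. The part of this difference in the members' values was not tested.

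Carriers of lactate and pyruvate were called in neither direction (limma, 0 of 3 members, 0 also at an unadjusted p under 0.05). Slc16a1, the monocarboxylate transporter of astrocytes, endothelium and oligodendrocytes, measured 5.98, 6.79 and 7.34 against 6.43, 5.31 and 5.89, a difference of 0.82 (SE 0.43). Slc16a3, the exporter of strongly glycolytic cells, measured 4.28, 3.63 and 3.75 against 2.96, 3.38 and 3.60, groups apart by 0.029 only, and its difference was 0.57 (SE 0.27, limma adjusted p = 0.43). Slc16a7, the neuronal form, measured 3.40 in both groups. Both of these dim genes lay under 4.74, where a change is hard to see.

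Entry of pyruvate into mitochondria is set by pyruvate dehydrogenase and by the kinases that switch it off. Pdk4, the kinase induced by fasting and glucocorticoids, measured 8.94, 6.44 and 5.60 on the reactive and 8.55, 8.38 and 8.83 on the non-reactive arrays. Reactive replicate 1 was the highest of all 6 and the other reactive arrays were the lowest, so the difference of -1.60 had a standard error of 0.80 (limma adjusted p = 0.453). Without reactive replicate 1 it was -2.57 (adjusted p = 0.0649) and without reactive replicate 3 it was -0.90 (adjusted p = 0.602). Pdk1, the kinase induced by hypoxia, differed by 0.61 (SE 0.40), Pdk2 by -0.25 (SE 0.35) and the enzyme's own subunit Pdha1 by 0.18 (SE 0.40), all with overlap.

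**Figure D3:**
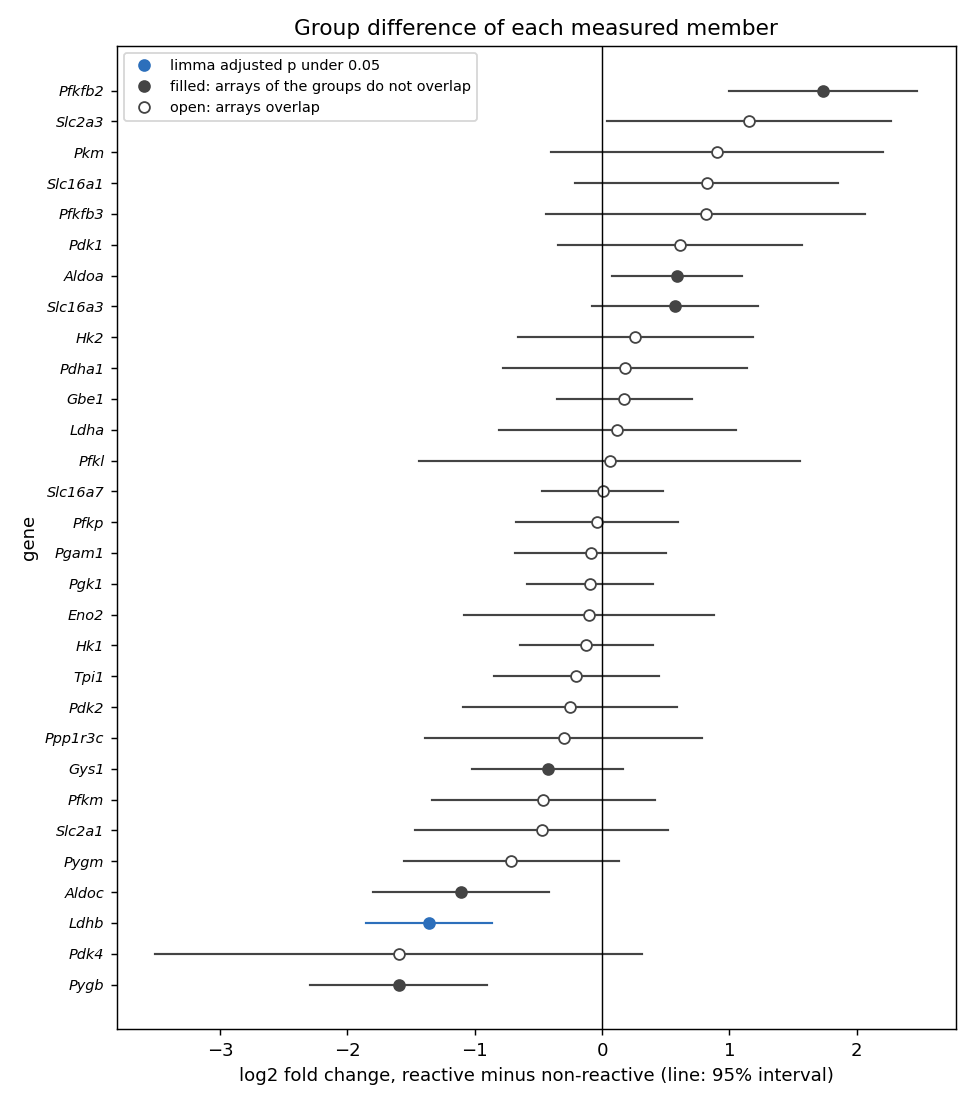
Log2 fold change (reactive minus non-reactive) of the 30 measured genes with 95% intervals from limma, ordered by size, filled where the arrays of the groups do not overlap. Ldhb, at -1.36, is the only gene past the threshold, and 7 points are filled.

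Where a gene had several probe sets, their differences were compared. All probe sets of Ldhb, Aldoc and Slc2a1 lay below 0 and all of Aldoa, Slc2a3, Slc16a1, Pfkfb3 and Pdha1 above it. Probe sets of Hk1, Pfkl, Pfkp, Pfkfb2, Tpi1, Pgk1, Pdk1, Gys1 and Ppp1r3c lay on both sides of 0. For Pfkp, whose representative differed by -0.04, the others differed by -0.56 and 0.58 and were dim in both groups.

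**Figure D4:**
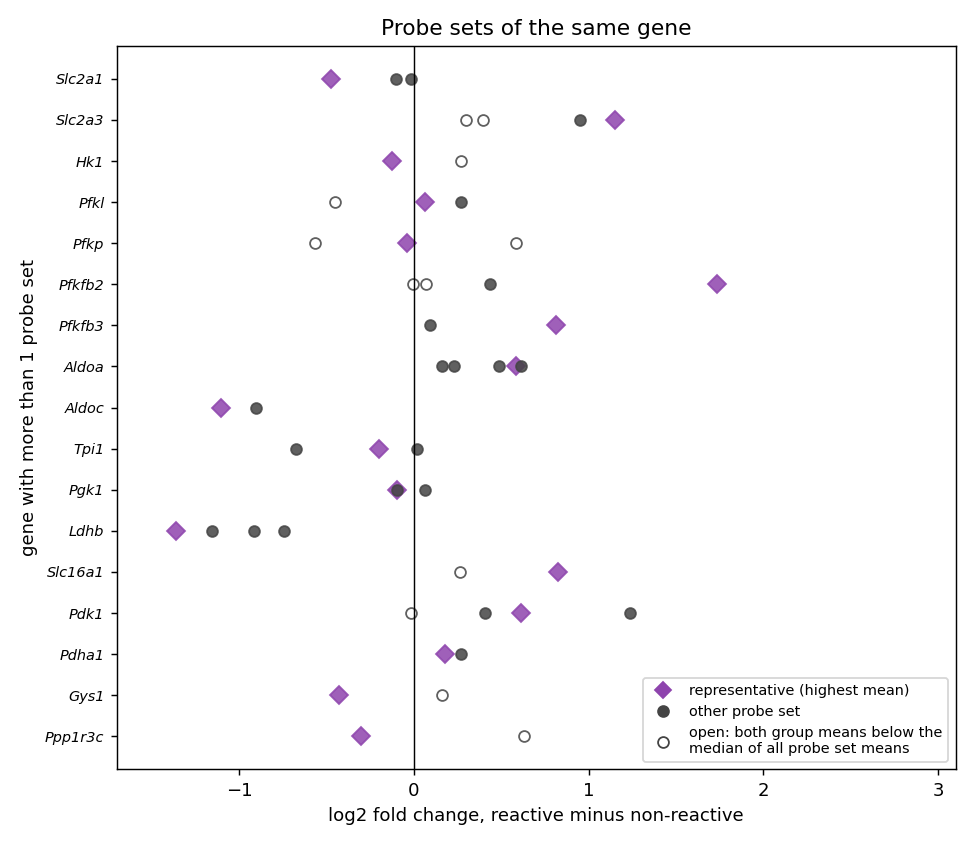
Log2 fold change of every probe set of the members with more than 1, the representative as a diamond and dim probe sets open. The 4 probe sets of Ldhb spread from -1.36 to -0.74, whereas those of Pfkfb2 spread from -0.003 to 1.74.

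Beyond the 30 members, 89 of 96 further genes of the pathway were measured. Of these 0 were called higher and 2 lower (limma), beside 0.39% and 0.561% of all genes, and 18 had an unadjusted p under 0.05, beside 2730 of 18193 genes. The genes called lower were Phka1, given above, and Pcx, pyruvate carboxylase, which refills the citric acid cycle and in the brain is known as an astrocyte enzyme. Pcx measured 6.66, 7.08 and 7.30 on the reactive and 8.52, 8.73 and 9.04 on the non-reactive arrays, fully apart. Its reactive mean was 3.35-fold lower, a log2 difference of -1.74 (SE 0.26, limma adjusted p = 0.0462). The call was lost without any 1 array (adjusted p of 0.0635 to 0.166) and held in 4 of 15 alternatives. The array's own Pcx controls gave opposite signs at the ends of the transcript. The one at the 3′ end was lower on all reactive arrays (7.32, 7.54 and 7.58 against 8.74, 8.85 and 9.13). The one at the 5′ end was higher on all of them (5.81, 5.87 and 6.43 against 5.27, 5.43 and 5.63). The other Pcx controls differed by 0.11 and -0.55 on average, both with overlap. The part of labelling in the lower Pcx values was not tested.

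Around pyruvate, Mpc1, a subunit of the mitochondrial pyruvate carrier, measured 9.23, 10.58 and 9.81 against 9.18, 7.68 and 8.19, higher on all reactive arrays by 1.52 on average (SE 0.49, limma adjusted p = 0.263). Of 9 genes of this list 0 passed (limma), with 2 at an unadjusted p under 0.05. In the pentose phosphate list of 9 genes also 0 passed, with 3 at an unadjusted p under 0.05. Both unadjusted counts stand beside 2730 of 18193 genes. Taldo1, transaldolase, measured 9.82, 9.93 and 11.07 against 8.93, 8.89 and 8.92, a difference of 1.36 (SE 0.35, adjusted p = 0.173), while Tkt, transketolase, differed by -0.60 (SE 0.23), both without overlap.

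Among 14 regulators 0 passed (limma), with 5 at an unadjusted p under 0.05, beside 2730 of 18193 genes. Without overlap were 2 higher and 4 lower, beside 13.5% and 8.2% of all genes. The alpha subunits Hif1a and Epas1 of the hypoxia-inducible factors differed in opposite directions without overlap. Hif1a measured 7.38, 7.97 and 7.84 against 6.78, 6.83 and 7.00 (difference 0.86, SE 0.23, limma adjusted p = 0.181). Epas1, which encodes the HIF-2 alpha subunit, measured 11.32, 10.62 and 11.27 against 12.20, 11.59 and 12.16 (-0.91, SE 0.29, adjusted p = 0.259). Arnt, the beta subunit, was also lower without overlap (-0.43, SE 0.19, limma adjusted p = 0.409). Ppargc1a, a coactivator of mitochondrial genes, measured 6.72, 6.59 and 4.13 against 8.34, 8.80 and 8.70, the largest difference of the 89 genes at -2.80 (SE 0.68, adjusted p = 0.146). Among the glucose transporters outside the members (9 measured) and the further lactate genes (7), 0 passed (limma), with 0 and 2 at an unadjusted p under 0.05.

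**Figure D5:**
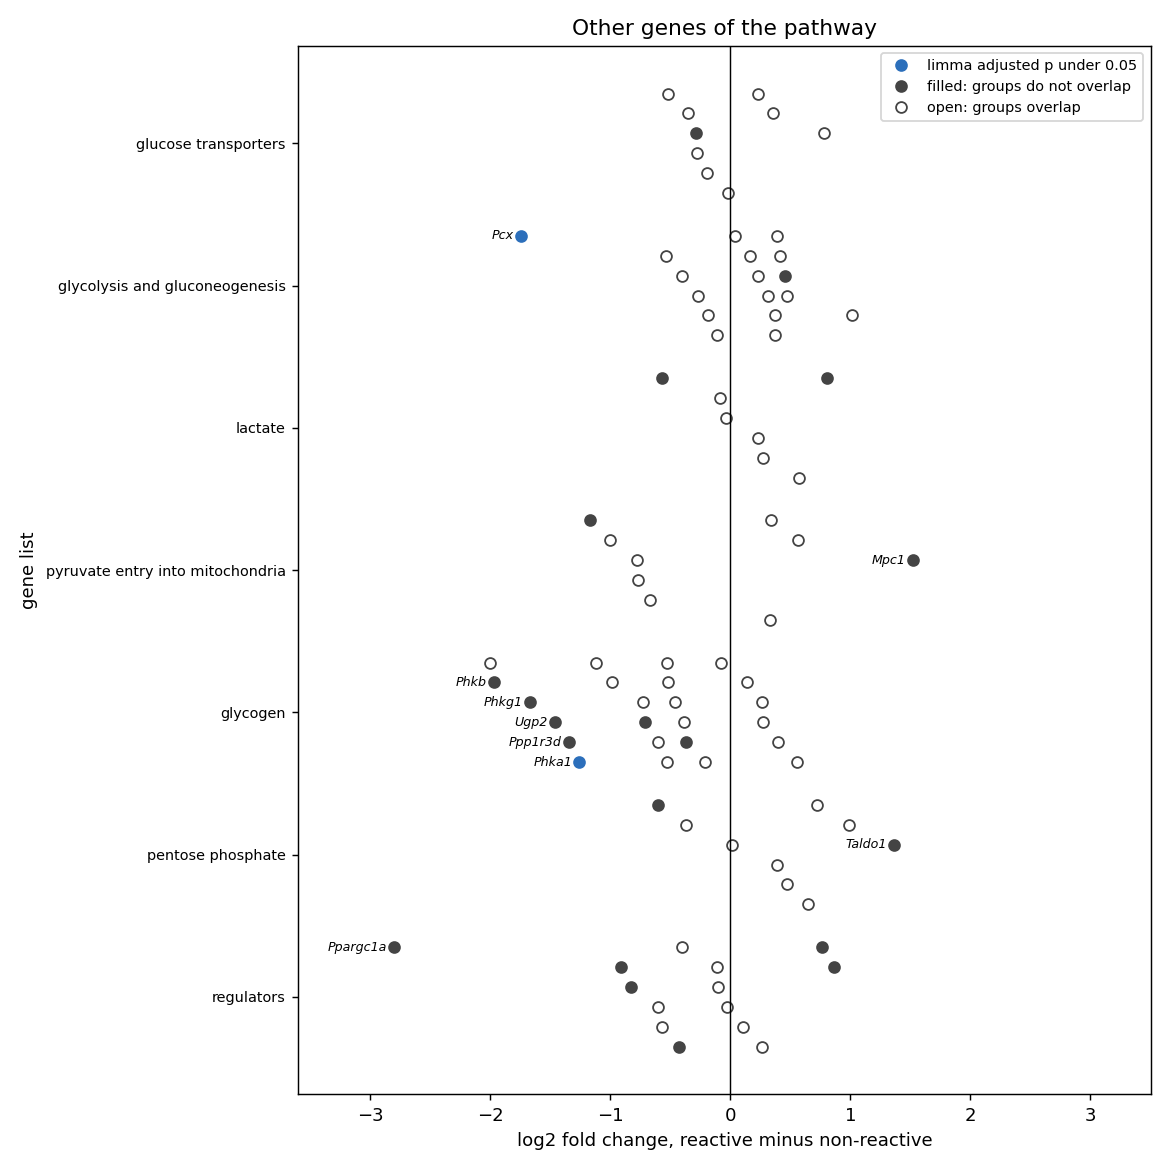
Log2 fold change (reactive minus non-reactive) of the 89 other measured pathway genes by list, filled where the groups do not overlap and blue where limma called them. Of the 2 called genes Pcx lies at -1.74 and Phka1 at -1.26, and 19 of the 24 glycogen genes lie below 0.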

How the data were processed

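Expression was measured on 6 arrays with 45101 probe sets. The deposited values are log2 values that the authors made, per the submitters' processing notes, with RMA, the robust multi-array average (settings and version not given in the sources used here). This method usually equalises the distributions of arrays, which hides changes in total RNA, and the array medians were 4.65 to 4.73.

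The 64 control probe sets were left out, and 45037 were fitted with limma 3.58.1 in R 4.3.3 (lmFit and eBayes, reactive minus non-reactive, no covariates, two-sided, Benjamini-Hochberg over all 45037). Gene symbols came from the platform annotation: 34945 probe sets had 1 symbol, 932 several and 9160 none. Errors are standard errors from limma and intervals have a level of 95%. Depth has no meaning for arrays, whose number limits the precision. The fit was tested on simulated data. Isoform pairs were compared with an exact permutation test over 20 splits. The promoter windows come from RefSeq.

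The members and lists were chosen with earlier results of these data known. Every measured member is accounted for, with values per array where the difference was at least 1 in size or the groups did not overlap. Other pathway genes were named if called, or if among the 6 largest differences without overlap. Hif1a, Epas1, Arnt, Tkt, Ppp1r3d, Phkg2 and Phka2 were named after their values were seen, as were the values per array of further members. Alternatives were scaling, variance model, array weights, filters, probe set choice, the replicate number as a block and leaving out each array.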

Additional observations from a re-analysis of the deposited data

How the results depend on the processing

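The direction of 19 of the 30 members was the same in all alternatives in which they could be fitted; 11 changed sign in at least 1, none with a log2 difference above 0.302 in size. Ldhb was below 0 throughout but not called with robust eBayes (-1.36, limma adjusted p = 0.0533), array weights (-1.37, 0.0535), dim probe sets removed (-1.36, 0.0541) or the mean of its probe sets (-1.04, 0.0539), and without 1 array it was -1.49 to -1.29. Without probe sets ending in _x_at, _s_at or _a_at it had no value. The labels do not say whether same-numbered replicates belong together. Correlations of their deviations from the group means were -0.073, -0.11 and 0.037, which does not settle it with 3 arrays a group. With the replicate block limma called 0 members (5 at an unadjusted p under 0.05), 0 other pathway genes (16) and 0 of all genes (2401), and Ldhb was at -1.36 (adjusted p = 0.172).

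The count of members called was 2 with cyclic loess and 0 with robust eBayes, array weights, dim probe sets removed, probe sets removed by suffix and the mean of probe sets, with 3 to 6 at an unadjusted p under 0.05. The count of other pathway genes called was 0 with renewed quantile normalisation, cyclic loess, eBayes with a trend and robust eBayes (15 to 19 unadjusted), and 1 with array weights, dim probe sets removed, probe sets removed by suffix and the mean of probe sets. Without 1 array both counts were 0 to 0 (4 to 8 and 14 to 22 unadjusted), and that of all genes was 0 to 77 against 173 (1909 to 2979 unadjusted).

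Sign changed for Slc16a7 with renewed quantile normalisation (-0.10) and cyclic loess (-0.13), Pfkp with array weights (0.0066), Pfkl (-0.45) and Pgk1 (0.062) with probe sets removed by suffix, and Hk1 (0.072), Pfkl (-0.042), Ppp1r3c (0.16) and Slc16a3 minus Slc16a1 (0.031) with the mean of probe sets. Without 1 array the ranges crossed 0 for Pfkp (-0.18 to 0.18), Eno2 (-0.52 to 0.18), Slc16a7 (-0.064 to 0.098), Pfkl (-0.59 to 0.46), Pgk1 (-0.19 to 0.030), Pdha1 (-0.082 to 0.52), Pgam1 (-0.26 to 0.097), Ldha (-0.25 to 0.52), Pdk2 (-0.51 to 0.13), Ppp1r3c (-0.76 to 0.0088) and Slc16a3 minus Slc16a1 (-0.81 to 0.14). The causes were not tested. The 3 arrays a group limit the precision.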

Other observations

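The median SD of the members over 3 arrays was 0.38 in reactive and 0.37 in non-reactive samples, while over all 18193 genes it was 0.40 and 0.28. The SD was larger in the reactive group for 17 of 30 members and for 11986 of 18193 genes. Single genes stood out from this: Pdk4 had an SD of 1.74 on reactive and 0.23 on non-reactive arrays, and Ldha 0.77 and 0.11, whereas Pygb had 0.16 and 0.49. Whether these spreads differ between the groups was not tested.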
